A study of Mus musculus with 13 samples.

Results

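The contractile genes of smooth muscle and of myofibroblasts were followed in mouse embryonic fibroblasts depleted of Setdb1, an enzyme that methylates lysine 9 of histone H3, and treated with 5-azacytidine (5-aza), a cytidine analogue that lowers DNA methylation. The 10 genes were Acta2, Tagln, Cnn1, Myh11, Actg2, Lmod1, Myl9, Tpm2, Smtn and Myocd. They were chosen by symbol as known members of this programme, and all 10 were found among the 25965 gene intervals of the deposited table. Poly(A) RNA was sequenced from primary female fibroblasts of E13.5 embryos that carried an Xist deletion (XistΔA) on one X chromosome and an X of the PGK strain as the other. Cells received a retroviral hairpin, puromycin after 24 h, 5-aza or none for 24 h from day 3, and were harvested on day 7.

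Each of 4 groups held 3 libraries. The control hairpin group held 1 library with a hairpin against luciferase (replicate 1) and a pair with a non-silencing hairpin (replicates A and B). The Setdb1 hairpin group held 1 library with the hairpin shSetdb1.6 (replicate 1) and a pair with shSetdb1.4 (replicates A and B). The other two groups were the same hairpins with 5-aza. Cells that received Setdb1 hairpins were heterozygous for a gene trap in Setdb1 and those with the non-silencing hairpin were wild type, according to the study, while the genotype of the luciferase cells was not stated. The labels named no genotype or embryo for a library, so the hairpin cannot be told apart from genotype, and p-values measured the spread between these libraries, which may be technical. Values are RPM, the reads of each gene scaled for library size, and the hairpin libraries held 41.9 to 58.8 M reads. As a check of the labels, the Setdb1 transcript averaged 46.25 ± 0.103 RPM (SD, n = 3) in the control group and 14.1 ± 1.72 RPM in the depleted group, and 43.4 ± 0.631 and 12.9 ± 2.16 RPM in the matching groups with 5-aza.

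Smooth muscle cells contract when myosin filaments slide along actin filaments, and fibroblasts switch on many of the same genes when they become myofibroblasts in stiff culture or wounds. Most of these genes are driven by serum response factor (SRF), a transcription factor that binds a motif called the CArG box. SRF works with coactivators of the myocardin family, of which myocardin (Myocd) belongs to heart and smooth muscle, while its relatives Mkl1 and Mkl2 are found in most cells and respond to free actin.

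The promoters are shown because the genes are known as SRF targets, and their part in the changes given below was not tested. RefSeq promoter windows (GRCm38.p6, 250 bases before to 50 after the annotated start) were found for Acta2, Cnn1, Lmod1, Myl9, Tpm2 and Smtn, 6 of the 10. The CArG box was searched for in each window, and its pattern reads the same on both strands. An exact match was found in the Myl9 window alone of the 6, at -161 from the start. Matches that were 1 letter off lay at -84 and -34 in Acta2, at -189 and -164 in Lmod1 and at -99 in Myl9, and none lay in the windows of Cnn1, Tpm2 and Smtn. The annotated start lay 1320 bases from the 5′ end of the measured gene interval for Smtn and 211 bases for Tpm2. For the other windows this was 6 to 44 bases. The Smtn window does not reach that 5′ end, so a match there was not searched for. Of 27025 mouse genes with a window, 1.81% held an exact match and 23.75% held an exact or 1-letter-off match, so a match of the looser kind is common. The stretches that hold the matches are given 5′ to 3′ on the gene's strand, with each exact or 1-letter-off CArG box in capitals. They are chr19:34255373-34255482 on the minus strand for Acta2, chr1:135324599-135324683 on the plus strand for Lmod1 and chr2:156775278-156775399 on the plus strand for Myl9.
Acta2: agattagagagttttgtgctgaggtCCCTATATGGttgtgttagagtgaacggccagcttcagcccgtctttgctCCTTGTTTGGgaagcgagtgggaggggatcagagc
Lmod1: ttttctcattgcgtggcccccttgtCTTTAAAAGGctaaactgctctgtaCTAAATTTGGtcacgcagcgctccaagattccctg
Myl9: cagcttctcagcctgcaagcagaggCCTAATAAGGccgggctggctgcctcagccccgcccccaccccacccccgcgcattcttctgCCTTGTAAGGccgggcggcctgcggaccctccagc

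All 10 genes were read in every hairpin library, and all passed the minimum of 1 RPM in at least 3 libraries. Levels between genes were compared as RPM per kilobase of exon. Acta2, the smooth muscle α-actin by which myofibroblasts are recognised, stood first at 3070 to 3901 RPM per kb over the 12 libraries. Tagln (transgelin, an actin-binding protein) followed at 926 to 1113, and Myl9 (the regulatory light chain of smooth muscle myosin) at 616 to 914. Actg2, the γ-actin of gut smooth muscle, was at 347 to 505 RPM per kb. Tpm2 (β-tropomyosin, 220.0 to 325 RPM per kb) and Cnn1 (calponin, 192 to 248) came next and their ranges overlapped, as the ranges of no other neighbours did. Lmod1 (leiomodin, which starts actin filaments) was at 50.4 to 69.0 RPM per kb, Smtn (smoothelin, an actin-binding protein) at 26.9 to 39.1 and Myh11 (the smooth muscle myosin heavy chain) at 14.0 to 21.0. Myocd, the only activator on the list, stood last at 0.333 to 0.837 RPM per kb.

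**Figure D1:**
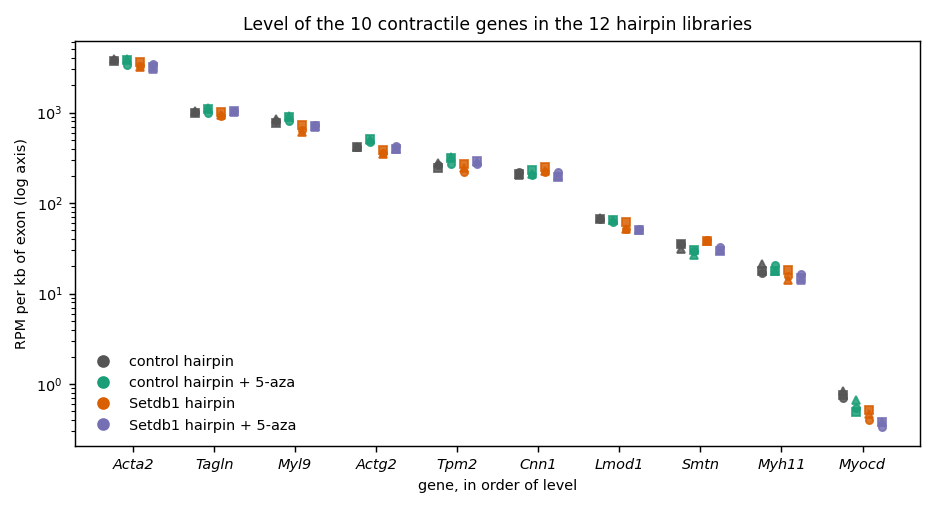
Level of the 10 contractile genes in RPM per kb of exon on a log axis, with 1 point per hairpin library, coloured by group (triangles are replicate 1, circles A, squares B). Acta2 lies at 3070 RPM per kb or more and Myocd at 0.837 or less, and the groups differ far less than the genes do.

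Acta2 alone took 0.77% to 0.976% of all RPM in genes, and the 10 genes together took 1.37% to 1.67%. Myocd had 107 to 257 reads per library and was the least precisely measured member. The ratio of the highest to the lowest library was 1.20 (Tagln) to 1.50 (Myh11) for the 9 structural genes and 2.51 for Myocd. The median ratio was 1.33 over all 13134 genes tested and 1.22 over the 1832 genes with a mean of at least 100 RPM.

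The cultures were checked against markers of other cell types. All 7 fibroblast markers (such as Col1a1, Col1a2 and Pdgfra) averaged at least 1 RPM, and their sum was 13153 to 21676 RPM. Of 11 genes of the skeletal and cardiac sarcomere, 3 averaged at least 1 RPM, the creatine kinase gene Ckm had at most 3 reads in any library, and the list's sum was 184 to 247 RPM. Among the 3, group means were 2.97 to 5.15 RPM for Actc1 and 5.10 to 8.93 RPM for Tnnt2. Most of the sum therefore came from 1 gene. Sums were 4.22 to 8.20 RPM for 5 endothelial markers and 9.62 to 14.0 RPM for 5 macrophage markers. Pericyte markers, several of which smooth muscle also expresses, summed to 747 to 1173 RPM over 7 genes. In bulk RNA, fewer cells of a contractile type and less RNA per cell cannot be told apart, and this holds for each result given here.

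**Figure D2:**
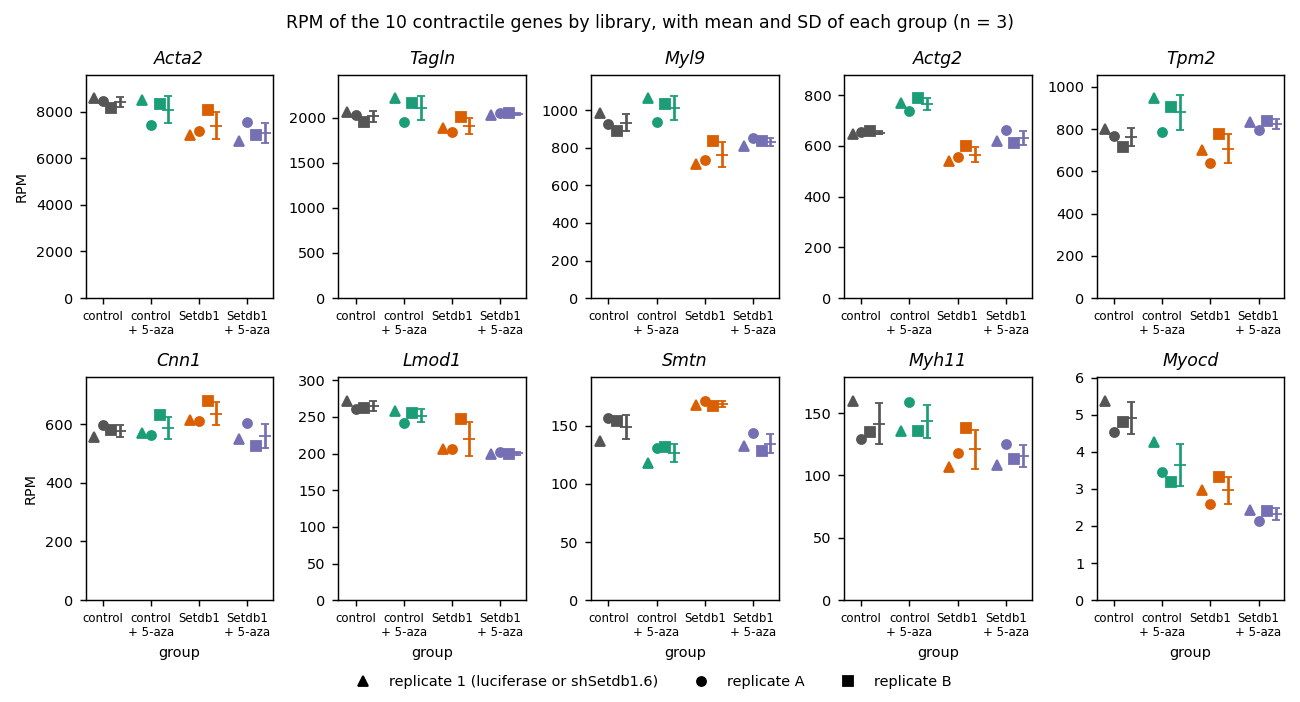
RPM of each contractile gene by group, with 1 symbol per library (triangles are replicate 1, circles A, squares B) and the mean with its SD (n = 3) beside them; each axis starts at 0. The 6 Setdb1 hairpin libraries lie under the 6 control hairpin libraries for Myl9, Myocd falls from 4.91 RPM in the control mean to 2.33 RPM with the Setdb1 hairpin and 5-aza, and Tagln hardly varies.

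The first comparison asked how the genes differ when Setdb1 is depleted. Without 5-aza, 4 of the 10 genes were lower with Setdb1 hairpins (Myocd, Myl9, Lmod1 and Actg2) and 0 were higher by limma, at an adjusted p under 0.05 over all genes, while 7 of the 10 and 3621 of all 13134 genes had an unadjusted p under 0.05. Of all genes tested, 3.4% were lower and 9.01% were higher. The median log2 fold change was -0.20 over the 10 genes and 0.03 over all genes tested. With 5-aza in both arms the same 4 genes were lower and 0 were higher, with 6 of the 10 and 4618 of the 13134 genes at an unadjusted p under 0.05. There the share of all genes was 5.37% for lower and 14.5% for higher, and the medians were -0.23 and 0.05. These comparisons use different libraries and the same hairpins.

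Myocd (chromosome 11, 65176561 to 65269989, minus strand) was at 5.38 RPM in the luciferase library, 4.54 in non-silencing A and 4.81 in non-silencing B. With Setdb1 hairpins and no 5-aza it was at 2.98 RPM (shSetdb1.6), 2.59 (shSetdb1.4 A) and 3.31 (shSetdb1.4 B). With 5-aza the control hairpin libraries held 4.27, 3.44 and 3.18 RPM and the Setdb1 hairpin libraries 2.44, 2.14 and 2.41. Every Setdb1 hairpin library was below every control hairpin library of the same treatment. Its log2 fold change came to -0.73 (SE 0.13, adjusted p = 0.00312, limma) without 5-aza and -0.63 (SE 0.13, adjusted p = 0.0054, limma) with it. Both calls held with replicates A and B only, that is, with 1 hairpin per group (-0.67 and -0.54).

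Lmod1 (chromosome 1, 135324807 to 135368065, plus strand) was at 272, 261 and 262 RPM in the luciferase, non-silencing A and non-silencing B libraries, and at 206, 207 and 247 RPM with shSetdb1.6, shSetdb1.4 A and shSetdb1.4 B. With 5-aza the values in the same order were 258, 242 and 256 RPM with control hairpins and 199.6, 202 and 199 RPM with Setdb1 hairpins. The groups did not overlap under either treatment, and without 5-aza the shSetdb1.4 B library stood nearest to the controls. Lmod1 fell by 0.28 on the log2 scale (SE 0.06, adjusted p = 0.0131, limma) without 5-aza and by 0.33 (SE 0.06, adjusted p = 0.00344, limma) with it.

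Myl9 (chromosome 2, 156775420 to 156781658, plus strand) was at 983, 927 and 891 RPM in the control hairpin libraries 1, A and B, and at 716, 737 and 838 RPM in the Setdb1 hairpin libraries 1, A and B. With 5-aza these were 1062, 938 and 1035 RPM against 809, 849.98 and 834 RPM. It was the only one of the 10 genes for which the 6 libraries with Setdb1 hairpins all lay under the 6 with control hairpins, whatever the 5-aza treatment. The share of all genes tested that separate in this way is not given here. Myl9 fell by 0.29 on the log2 scale (SE 0.07, adjusted p = 0.0142, limma) without 5-aza and by 0.28 (SE 0.07, adjusted p = 0.0114, limma) with it.

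Actg2 (chromosome 6, 83512905 to 83536265, minus strand) was at 646, 654 and 657 RPM in the control hairpin libraries 1, A and B, and at 539.7, 557 and 598 RPM in the Setdb1 hairpin libraries. With 5-aza it was at 769.8, 738 and 786 RPM with control hairpins and at 620.0, 663 and 613 RPM with Setdb1 hairpins. The groups did not overlap, and the Setdb1 hairpin libraries with 5-aza lay on both sides of the control hairpin libraries without it. Actg2 fell by 0.21 on the log2 scale (SE 0.05, adjusted p = 0.0141, limma) without 5-aza and by 0.28 (SE 0.05, adjusted p = 0.00207, limma) with it.

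The calls of Lmod1, Myl9 and Actg2 without 5-aza rested in part on the replicate 1 libraries, which carry the other hairpins. Without the shSetdb1.6 library only Myocd was called lower, while the log2 fold changes kept their sign at -0.23 for Lmod1, -0.25 for Myl9 and -0.18 for Actg2. Without the luciferase library Myocd and Actg2 were. With replicates A and B only, the log2 fold changes without 5-aza kept their sign (adjusted p = 0.221 for Lmod1, 0.206 for Myl9 and 0.179 for Actg2, limma). With 5-aza, Lmod1, Actg2 and Myocd stayed called in that fit and Myl9 did not (adjusted p = 0.0914, limma). Myl9 was also lost with 5-aza in the fit without the shSetdb1.6 library treated with 5-aza, and without 5-aza under quantile normalization, which forces every library to the same distribution. The share of all genes called in these fits is not given here.

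**Figure D3:**
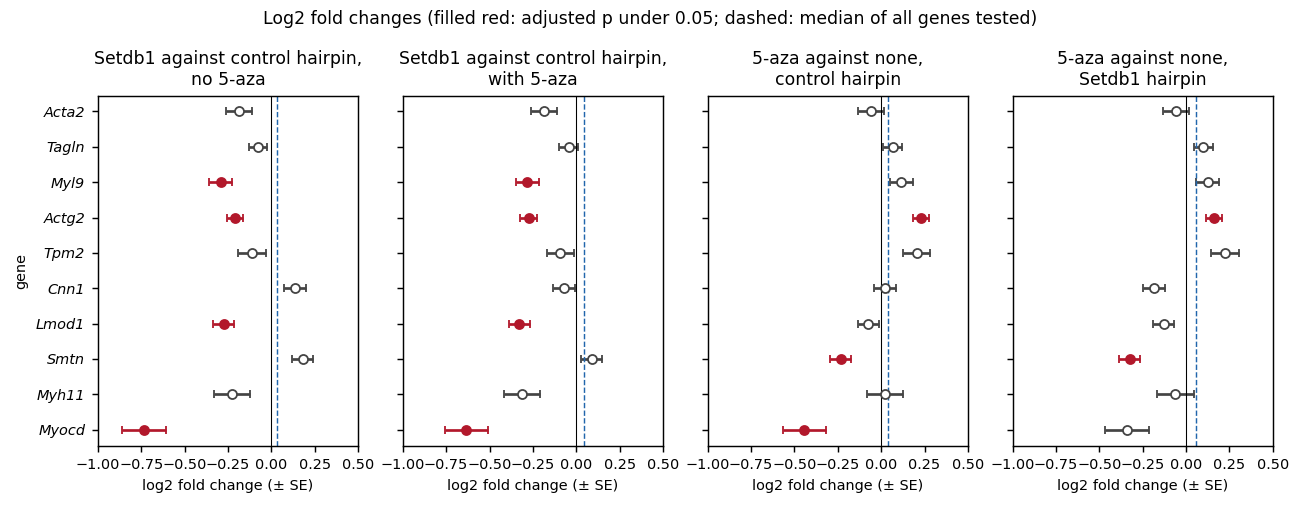
Log2 fold change with its SE for each contractile gene in 4 comparisons (n = 3 libraries per group), with calls at an adjusted p under 0.05 filled in red and the median of all genes tested dashed. Myocd, Lmod1, Myl9 and Actg2 lie below 0 in both hairpin comparisons, while Actg2 lies above 0 and Smtn below 0 in both 5-aza comparisons.

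The other members did not pass the test between hairpins. Acta2 (chromosome 19, 34241090 to 34255336, minus strand) was at 8567, 8467 and 8163 RPM in the control hairpin libraries 1, A and B and at 6983, 7159 and 8057 RPM in the Setdb1 hairpin libraries. With 5-aza it was at 8501, 7439 and 8318 RPM against 6742, 7553 and 6979.7 RPM. The groups did not overlap without 5-aza and overlapped with it. The log2 fold changes were -0.19 (SE 0.07, adjusted p = 0.130, limma) and -0.19 (SE 0.07, adjusted p = 0.0957, limma), and the second changed with the scaling. It was 0.0025 under quantile normalization, and -0.25 with each library centred on its median, where Acta2 was called lower (adjusted p = 0.0393, limma). Acta2 shares few of its 50-base words (0.326%) with other transcripts, among them that of the cytoplasmic actin gene Actg1.

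Myh11 (chromosome 16, 14194527 to 14291408, minus strand) was at 160 RPM in the luciferase library, the highest of the 12, and at 129 and 135 RPM in the non-silencing libraries. It was at 106, 118 and 138 RPM in the Setdb1 hairpin libraries 1, A and B. With 5-aza it was at 135.5, 159 and 135.5 RPM against 108, 125 and 113 RPM. The groups overlapped without 5-aza and not with it, and the log2 fold changes were -0.23 (SE 0.10, adjusted p = 0.181, limma) and -0.31 (SE 0.10, adjusted p = 0.0558, limma). Without 5-aza the value was -0.14 in the fit without the luciferase library, -0.14 without the shSetdb1.6 library and -0.05 with replicates A and B only. With 5-aza it was called lower in 7 of 22 alternative fits. Tpm2 (chromosome 4, 43514711 to 43523765, minus strand) and Tagln (chromosome 9, 45929628 to 45936058, minus strand) overlapped between hairpins under both treatments, with log2 fold changes of -0.11 and -0.09 for Tpm2 and -0.08 and -0.04 for Tagln (adjusted p = 0.382 or more, limma).

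Cnn1 and Smtn lay above 0 without 5-aza. Cnn1 (chromosome 9, 22099281 to 22109630, plus strand) was at 556, 598 and 578 RPM in the control hairpin libraries 1, A and B and at 614, 609.5 and 679.6 RPM in the Setdb1 hairpin libraries, without overlap (log2 fold change 0.13, SE 0.06, adjusted p = 0.197, limma). Smtn (chromosome 11, 3517523 to 3540612, minus strand) was at 137, 156 and 154 RPM and at 167, 171 and 167 RPM, also without overlap (0.18, SE 0.06, adjusted p = 0.0737, limma). With 5-aza both genes overlapped between hairpins, at -0.07 for Cnn1 and 0.09 for Smtn. Of the 10 genes, 8 log2 fold changes were below 0 without 5-aza and 9 with it, and 4 of the 10 were called each time. The medians over all genes tested were 0.03 and 0.05, and the share of all genes below 0 is not given here. The 10 genes were read in the same libraries, so their signs are not independent of each other.

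The second comparison asked how the genes differ with 5-aza. Each 5-aza comparison shares libraries with both hairpin comparisons, so the values are given side by side. In control hairpin cells 1 gene was higher (Actg2) and 2 were lower (Smtn and Myocd), against 13.47% higher and 5.34% lower among all genes tested. In Setdb1 hairpin cells Actg2 was higher and Smtn was lower, against 21.36% and 7.51% of all genes. The 10 genes had a median log2 fold change of 0.02 in the former and -0.06 in the latter, and all genes tested had medians of 0.04 and 0.06.

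Pairs of libraries with the same hairpin and replicate were counted for the contractile genes only, without a share over all genes. Actg2 was higher with 5-aza in 6 of 6 such pairs. In control hairpin cells it rose from 652 ± 5.60 to 765 ± 24.5 RPM (SD, n = 3), and no library with 5-aza was as low as any without it (log2 fold change 0.23, SE 0.05, adjusted p = 0.00648, limma). In Setdb1 hairpin cells it rose from 565 ± 30.1 to 632 ± 27.3 RPM, again without overlap (0.16, SE 0.05, adjusted p = 0.0233, limma). The rise in Setdb1 hairpin cells was not called once each library was centred on its median (0.11) or in fits without the library of shSetdb1.6 or of shSetdb1.4 A without 5-aza, or of shSetdb1.4 A with it (adjusted p up to 0.141 over all alternatives, limma).

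Smtn was lower with 5-aza in 6 of 6 pairs. It fell from 149 ± 10.7 to 127 ± 7.71 RPM in control hairpin cells (log2 fold change -0.23, SE 0.06, adjusted p = 0.021, limma) and, in Setdb1 hairpin cells, from 168 ± 2.58 to 135 ± 7.89 RPM (-0.33, SE 0.06, adjusted p = 0.00311, limma). The luciferase library with 5-aza was the lowest of the 12 at 118 RPM, and the groups overlapped in neither arm. The call in control hairpin cells was lost in fits without non-silencing A, without non-silencing B or without the luciferase library with 5-aza (adjusted p up to 0.0872 over all alternatives, limma). Smtn lies across from Gm11946, a gene annotated on the other strand that covers 16.3% of its exon length, and no source used here says whether reads were assigned by strand, so reads of the pair cannot be told apart. Gm11946 itself went from 45.4 ± 2.92 to 35.7 ± 2.94 RPM and from 48.2 ± 0.412 to 36.7 ± 3.31 RPM with 5-aza (log2 fold changes -0.35 and -0.40, adjusted p = 0.00779 and 0.0029, limma), and its part in the Smtn result was not tested.

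Myocd was lower with 5-aza in 6 of 6 pairs too. It fell from 4.91 ± 0.426 to 3.63 ± 0.567 RPM in control hairpin cells (log2 fold change -0.44, SE 0.13, adjusted p = 0.0298, limma), and the groups did not overlap. It was at 2.96 ± 0.363 and 2.33 ± 0.163 RPM in Setdb1 hairpin cells, also without overlap (-0.34, SE 0.13, adjusted p = 0.0602, limma). Of the 4 group means, Myocd was highest with control hairpins and no 5-aza and lowest with Setdb1 hairpins and 5-aza, and the interaction of hairpin and 5-aza was 0.10 (SE 0.18, adjusted p = 0.883, limma). The call in control hairpin cells was lost in fits without the luciferase library, without non-silencing B, and without non-silencing A or B with 5-aza.

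**Figure D4:**
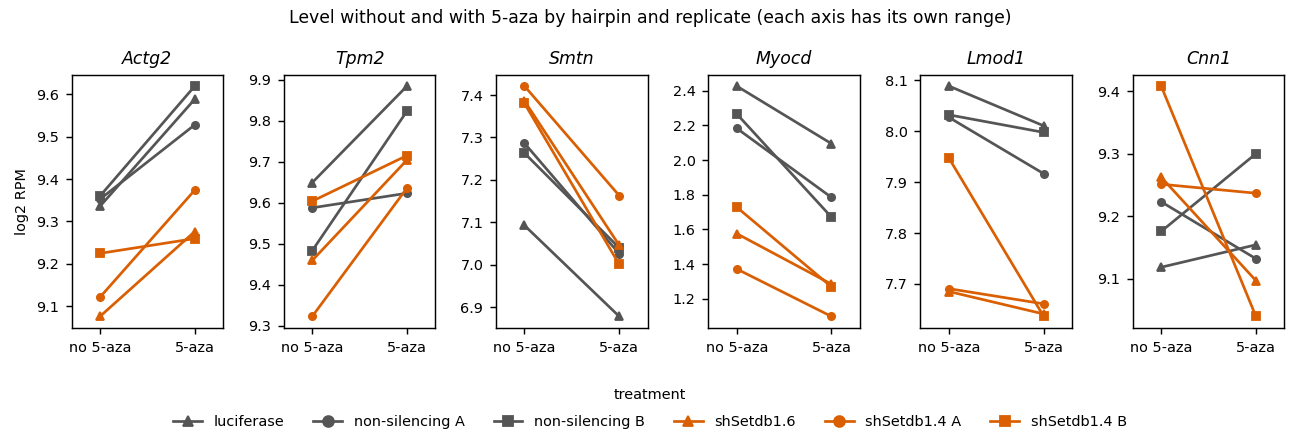
Log2 RPM of 6 contractile genes without and with 5-aza, with 1 line per hairpin and replicate (grey for control hairpins, orange for Setdb1 hairpins); each axis has its own range. Actg2 and Tpm2 rise along all 6 lines, Smtn, Myocd and Lmod1 fall along all 6, and Cnn1 falls along the 3 Setdb1 hairpin lines and goes both ways along the control lines. The genes not shown, Acta2, Tagln, Myh11 and Myl9, go both ways over the 6 pairs. The share of all genes that move 1 way in all 6 pairs is not given here.

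In Setdb1 hairpin cells, libraries with the same hairpin and replicate varied together (correlations of 0.413 to 0.634). A fit with the culture as a block was run over all 12 hairpin libraries, so its errors draw on the control hairpin cells too. The share of all genes called in that fit is not given here. For Setdb1 hairpin cells the fit added Tpm2 as higher (log2 fold change 0.22, adjusted p = 0.0113, limma, against 0.0519 without the block). It also added Cnn1 and Myocd as lower (-0.18 and -0.34, adjusted p = 0.0368 and 0.0121, limma, against 0.0502 and 0.0602). Tpm2 was higher with 5-aza in 6 of 6 pairs. It was at 704, 640.1 and 778 RPM in the Setdb1 hairpin libraries 1, A and B and at 834, 796 and 841 RPM with 5-aza, without overlap. In control hairpin cells it was at 803, 769 and 715 RPM and at 945, 789 and 906 RPM, and there the groups overlapped (0.20, SE 0.08, adjusted p = 0.0905, limma). Cnn1 was at 548, 603 and 526 RPM in the Setdb1 hairpin libraries with 5-aza, all below the 609.5 RPM or more without it. In control hairpin cells its log2 fold change was 0.02 (SE 0.06, adjusted p = 0.834, limma), with 569.9, 561 and 631 RPM in libraries 1, A and B with 5-aza.

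Lmod1 lay lower with 5-aza in 6 of 6 pairs and its groups did not overlap in either arm, but it was not called (log2 fold changes -0.07 and -0.13, adjusted p = 0.414 and 0.131, limma). Tagln, Myl9, Myh11 and Acta2 were not called in either arm, with log2 fold changes between -0.06 and 0.12. Of the 6 pairs, Tagln and Myl9 were higher with 5-aza in 5, Myh11 in 4 and Acta2 in 2. Tagln overlaps the transcript Gm48529 on the other strand over 62.4% of its exon length and the protease gene Pcsk7 over 5.43%. Of its 50-base words, 58.35% occur on either strand in transcripts of other genes. These are the same overlaps, with 55.4% in Gm48529 and 2.98% in Pcsk7. Pcsk7 was at 18.7 to 22.5 RPM in the group means, against 1908 to 2110 RPM for Tagln, and the level of Gm48529 is not given here.

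The interaction of hairpin and 5-aza was called for 0 of the 10 genes by limma, against 0.388% of all genes tested. The lowest value was that of Cnn1 (log2 -0.21, SE 0.09, adjusted p = 0.794, limma) and the highest that of Myocd. Cnn1 was the 1 gene of the 10 with an unadjusted p under 0.05. The limma fit on recovered reads (voom) also called 0 of the 10.

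Genes with a pattern like that of Acta2 were ranked by the root mean square (RMS) difference of log2 RPM, each gene centred on its mean over the 12 libraries. The 5 nearest genes outside the list were S100a11 (0.0388), Tgfb1i1 (0.0463), Ap3m1 (0.0501), Sh3bp4 (0.0514) and Ost4 (0.0524). Tgfb1i1 (Hic-5) is a focal adhesion protein known from smooth muscle and TGF-beta signalling, and S100a11 is a calcium-binding protein. Among the contractile genes Lmod1 was nearest (0.0759), followed by Tagln (0.103), Myl9 (0.106), Myh11 (0.128), Cnn1 (0.134), Actg2 (0.137), Tpm2 (0.158), Smtn (0.222) and Myocd (0.328). The median over all genes tested was 0.187, and a gene with a constant level would lie at 0.122. Of the contractile genes, Lmod1, Tagln and Myl9 lay nearer to Acta2 than that. In the ranking of all genes tested Myl9 stood at 4.28% and Myh11 at 12.34%, so the share of all genes nearer than a constant level lies between these. The measure also counts the size of changes, so a gene that moves with Acta2 by larger steps can lie further off.

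Other smooth muscle genes of the actin cytoskeleton and the membrane were counted for comparison, and of 24 such genes 23 were tested. Without 5-aza, 3 were higher and 1 was lower with Setdb1 hairpins, with a median log2 fold change of -0.06, against 9.01% higher and 3.4% lower and a median of 0.03 among all genes. The 3 with the largest changes were the intermediate filament genes Synm (0.67, adjusted p = 0.00254, limma) and Des (0.53, adjusted p = 0.00763, limma) and the LIM protein gene Csrp2 (0.55, adjusted p = 0.000703, limma). With 5-aza in both arms 1 was higher and 3 were lower (14.5% and 5.37% of all genes), with a median of -0.07. They were led by Itga8, an integrin subunit of smooth muscle (-0.58, adjusted p = 0.00751, limma), Csrp2 (0.38, adjusted p = 0.00487, limma) and the actin bundler Synpo2 (-0.29, adjusted p = 0.043, limma). With 5-aza against none, 2 rose and 2 fell in control hairpin cells, and 2 rose and 5 fell in Setdb1 hairpin cells, against 13.47% and 5.34% and against 21.36% and 7.51% of all genes. Des rose by 0.93 in control hairpin cells and Kcnmb1, a subunit of the calcium-activated potassium channel, rose by 0.70 there, while Itga8 fell by 0.53 on the log2 scale. In Setdb1 hairpin cells Synm fell by 0.72 (adjusted p = 0.00121, limma) and Itga8 by 0.61, and Kcnmb1 rose by 0.49.

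**Figure D5:**
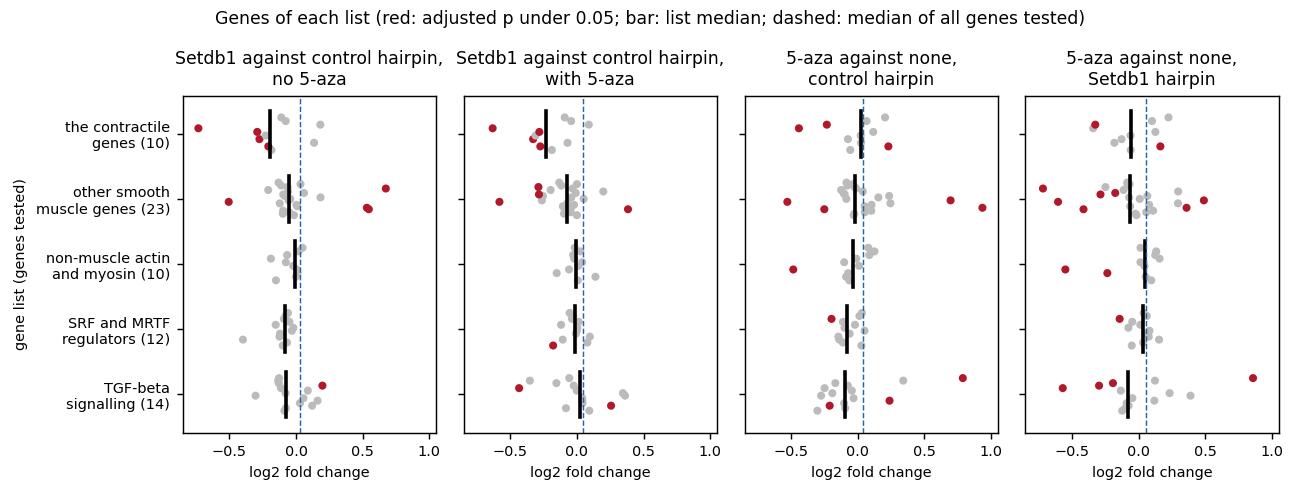
Log2 fold change of each tested gene in 5 lists and 4 comparisons (1 point per gene, red at an adjusted p under 0.05, black bar for the list median, dashed line for the median of all genes tested). In both hairpin comparisons the 10 contractile genes have medians of -0.20 and -0.23, and the medians of the other 4 lists shown lie between -0.09 and 0.02.

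Non-muscle actin and myosin genes, which build the general cytoskeleton, were called in neither hairpin comparison (0 of 10 each). With 5-aza the non-muscle myosin heavy chain gene Myh10 fell by 0.48 and by 0.55 on the log2 scale in control and Setdb1 hairpin cells (adjusted p = 0.000782 and 0.000429, limma), and Cnn3, the calponin of non-muscle cells, fell by 0.24 in Setdb1 hairpin cells (adjusted p = 0.0189, limma). Of 12 regulators of SRF and its coactivators, Srf, Mkl1 and Mkl2 among them, 0 were called between hairpins without 5-aza and 1 with it. That was Elk1, an SRF partner (-0.18, adjusted p = 0.0129, limma). Tead1, the factor through which Yap1 acts on DNA, fell by 0.20 and by 0.14 with 5-aza (adjusted p = 0.0123 and 0.0364, limma).

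Of 14 genes of TGF-beta signalling, the pathway that drives myofibroblast formation, 1 was higher and 0 were lower with Setdb1 hairpins without 5-aza, and 1 was higher and 1 lower with it. Those were the ligand genes Tgfb3 (0.20, adjusted p = 0.0175, limma) without 5-aza and Tgfb2 (-0.43, adjusted p = 0.0163, limma) with it, and the inhibitor gene Skil (0.26, adjusted p = 0.0143, limma) with it. With 5-aza the coreceptor gene Tgfbr3 rose by 0.79 in control and by 0.86 in Setdb1 hairpin cells. In control hairpin cells Smad3 rose by 0.24 and Skil fell by 0.21, and in Setdb1 hairpin cells Tgfb2 fell by 0.57 and Tgfb3 by 0.30 on the log2 scale.

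Markers of other cell types moved beside the contractile genes in places. The median log2 fold change between hairpins was -0.0025 without and -0.43 with 5-aza over the 7 fibroblast markers, and -0.09 and -0.30 over the 6 tested pericyte markers, beside -0.20 and -0.23 over the 10 contractile genes. Of the 7 fibroblast markers 0 were called between hairpins without 5-aza, and 0 were higher and 1 was lower with it. With Setdb1 hairpins and no 5-aza, 1 of the 6 tested pericyte markers was higher (Rgs5) and 2 were lower, and with 5-aza 3 were lower. The summed level of the 7 pericyte markers was 1067 to 1173 RPM with control and 974 to 1108 RPM with Setdb1 hairpins, and 903 to 1060 against 747 to 843 RPM with 5-aza. Fibroblast markers summed to 15424 to 19330 RPM with control and 17082 to 21676 RPM with Setdb1 hairpins, and to 13979 to 20466 and 13153 to 16919 RPM with 5-aza. Epithelial markers, of which 2 of 4 were tested, summed to 2.64 to 3.16 RPM with control hairpins, 9.62 to 10.5 RPM with Setdb1 hairpins, and 8.57 to 10.6 and 20.8 to 23.5 RPM with 5-aza. With 5-aza against none, 1 of 2 tested macrophage markers was higher in control and 2 of 2 in Setdb1 hairpin cells, and 2 of 2 tested epithelial markers were higher in both. Of 3 tested endothelial markers 1 was lower in each arm, and of the 6 pericyte markers 1 was lower in control and 3 in Setdb1 hairpin cells. Macrophage markers summed to 9.86 to 10.8 RPM with control hairpins and 11.6 to 14.0 RPM once 5-aza was added, and to 9.62 to 10.4 and 12.6 to 13.0 RPM with Setdb1 hairpins. Endothelial markers summed to 7.05 to 8.20 and 4.22 to 6.28 RPM, and to 6.19 to 6.68 and 4.44 to 5.97 RPM, in the same order. The part of other cell types in the contractile gene results was not tested.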

How the data were processed

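RNA was measured in 13 libraries, of which 12 were assigned to 4 groups of 3 from their titles. The deposited table holds log2 RPM values of genes in mm10, and per the labels CASAVA 1.4 was used. The aligner, the gene annotation and the use of strand for the gene table are not given in the sources used here. For allele counting, the paper names TopHat and Bowtie1 on chromosome X of mm9, which is another build and a narrower scope than this table. In every library 100% of the log2 RPM values up to 1000 reads were whole multiples of 1 read, within 0.1 read, and genes without a read held 0.9 read. The value of 1 read was 0.017 to 0.0239 RPM, so reads could be recovered. Counting precision covers counting error only.

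The 13134 genes that reached 1 RPM in 3 or more hairpin libraries were fitted in R 4.3.3 with limma 3.58.1 on log2 RPM, with the 4 groups as the only term and a trend in eBayes. Tests were two-sided, with Benjamini-Hochberg adjustment over all genes, and genes were called at an adjusted p under 0.05. As a count alternative, limma voom on recovered reads called 1554 genes between hairpins without 5-aza, against 1630 on log2 RPM, and 1541 were shared. Other alternatives were library centring, quantile normalization, other filters and pseudocounts, fewer groups, blocks, and leaving out libraries. The paper states no test for expression differences in these libraries.

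Libraries with the same hairpin and replicate were checked for pairing without and with 5-aza. Correlations of their deviations were 0.413 to 0.634 in Setdb1 hairpin cells and 0.0999 to 0.586 in control hairpin cells, so a block is given in the text for the former.

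Named genes were all 10 contractile genes, up to 3 called genes with the largest changes for each of 4 related lists and each comparison, and the 5 genes nearest to Acta2. The genes and lists were chosen with earlier results of these data known. Positions are 1-based, and exon lengths and overlaps came from GENCODE of the same build. Python 3.11.15, numpy 2.4.6, pandas 2.3.3 and matplotlib 3.10.9 were used. A 5-aza library whose title names no hairpin entered no comparison.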

Additional observations from a re-analysis of the deposited data

Results flagged for a closer look

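A further library was treated with 5-aza, but its labels name no hairpin and put it in no group. In the table it is named after PGK, the strain from which the hairpin cells took one of their X chromosomes, so strain, hairpin and library cannot be told apart. The paper describes a PGK sample in which variants of that strain were found. Whether this library is that sample is not stated. It held 20.4 M reads. Actg2 stood at 869.2 RPM there, above all 12 hairpin libraries (540 to 786 RPM), and Smtn at 164 RPM, above the control hairpin libraries with 5-aza (118 to 132 RPM). Both drew attention because they exceed every control hairpin library with 5-aza. There is 1 such library, so neither difference was tested.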

How the results depend on the processing

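Between hairpins without 5-aza, the count of contractile genes called lower was 4, and 1 with replicates A and B only, where 4 fewer libraries were fitted; it was 1 to 4 when 1 library was left out, with 2 in the fit without the luciferase library and 1 without the shSetdb1.6 library. The count called higher went from 0 to 1 (Smtn) with the replicate block, that is, the replicate label (1, A, B) as a term. Across hairpins, libraries with the same label (1, A and B) had correlations of 0.098, 0.19 and -0.47 without 5-aza. With 5-aza these were 0.484, 0.686 and -0.02, so the labels did not pair the libraries throughout. With 5-aza in both arms the count called lower was 3 to 5 when 1 library was left out and 6 with each library centred on its median (Acta2 and Myh11 added), and the fold changes of Acta2 and Tagln turned to 0.0025 and 0.0104 under quantile normalization.

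With 5-aza against none in control hairpin cells, the count called higher was 1 and became 0 with replicates A and B only and 2 with the replicate block or with the culture as a block, which added Tpm2 (adjusted p = 0.0373 and 0.023, limma). The count called lower was 2 and became 1 with a minimum of 5 RPM (Myocd was not tested there), with only the groups of the comparison, and with replicates A and B only. Leaving out 1 library gave 1 to 2 higher and 0 to 2 lower. In Setdb1 hairpin cells 1 was higher and 1 lower. These counts became 0 and 4 with each library centred on its median, 3 and 2 under quantile normalization, 2 and 2 with voom on recovered reads, and 2 and 3 with either block. The higher count was 0 with only the groups of the comparison and with replicates A and B only, and the lower count was 2 with the 5 RPM minimum. Leaving out 1 library gave 0 to 3 higher and 1 to 2 lower. Centring moved the median of all genes tested from 0.058 to 0.001 in Setdb1 hairpin cells. With voom 3811 of all genes were called there, against 3792 in the main fit. For the other alternatives in both arms the share of all genes called is not given here. The causes of the shifts in these counts were not tested.

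Signs turned for genes near 0 with 5-aza. In control hairpin cells Acta2 moved to 0.1343 under quantile normalization and ranged from -0.0942 to 0.002 when 1 library was left out. Cnn1 and Myh11 moved to -0.0216 and -0.0235 with centred libraries and ranged from -0.0292 to 0.0548 and from -0.0551 to 0.1131. In Setdb1 hairpin cells Acta2 moved to 0.2051 under quantile normalization and ranged from -0.1064 to 0.0027, and Myh11 ranged from -0.1485 to 0.0382. The values of Acta2 under quantile normalization follow its rank alone, which was 2 to 4 in each hairpin library. They cannot show a change in level at the same rank. The calls of Myocd in both hairpin comparisons, of Lmod1 and Actg2 in the one with 5-aza, and of Smtn with 5-aza in Setdb1 hairpin cells held under all alternatives run that tested them. No called gene changed sign. Myocd, with 107 to 257 reads per library, had the largest errors.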

Other observations

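In the same library Acta2 (6383 RPM), Tagln (1490 RPM), Cnn1 (389 RPM), Myl9 (709.8 RPM) and Tpm2 (630 RPM) were below all 12 hairpin libraries, while Myh11, Lmod1, Smtn and Myocd lay within their range. Acta2 and Actg2, both actin genes of smooth muscle, thus stood at opposite ends there.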
